A study of Homo sapiens with 16 samples.

Results

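The genes described here are 10 components of the G1 and S-phase cell cycle machinery, out of 18991 genes in the count table. They are the D-type cyclins CCND2 and CCND3, the E-type cyclins CCNE1 and CCNE2, the A-type cyclin CCNA2, the kinases CDK4 and CDK2, the inhibitors CDKN2C (p18) and CDKN1B (p27), and the retinoblastoma protein RB1. They were taken by name, and each was found in the table through its Entrez gene identifier. All 10 passed the filter on low counts that left 12517 genes for testing.

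In G1, D-type cyclins activate CDK4, which begins to phosphorylate RB1 and so weakens its hold on the E2F transcription factors. E-type cyclins with CDK2 complete this step and help to start DNA replication, and CCNA2 takes over CDK2 in S phase. CDKN2C binds CDK4 and keeps it from its cyclin, whereas CDKN1B binds cyclin-CDK complexes and is itself removed by ubiquitin-mediated degradation as cells enter S phase. Since many of these proteins turn over within one cycle, their amount depends on how much of their mRNA is being translated as well as on how much mRNA there is.

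Poly(A)-selected RNA was sequenced from MOLM13, a human acute myeloid leukemia cell line that stably carries Cas9 and had been transduced with a lentiviral vector for a guide RNA, puromycin resistance and RFP. The guide was either a non-targeting control (sgLUC) or directed against YBX1 (sgYBX1), an mRNA-binding cold shock protein, and all cells were kept under puromycin and blasticidin for 14 days. From each culture type RNA came either from whole lysate (total RNA) or from the heavy fractions of a sucrose gradient, pooled as polysomal RNA, in which an mRNA carries several ribosomes. With 4 replicates in each of the 4 groups there were 16 libraries, and all cells of a group are a selected pool rather than a clone.

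The libraries held 38326270 to 66164414 counts. Levels are given as CPM, a library's counts rescaled to a common sum, adjusted between libraries by the trimmed mean of M-values (TMM), and as CPM per kilobase of exon where genes are compared with each other. YBX1 itself was at 901 ± 24.0 CPM in total RNA with sgLUC and 530 ± 22.9 CPM with sgYBX1 (SD, n = 4 each), and at 861 ± 76.4 and 632 ± 19.8 CPM in polysomal RNA. In both fractions the groups were separate, with sgYBX1 the lower (58.8% and 73.4% of sgLUC; exact permutation test, two-sided, p = 0.0286 each, the smallest p that 4 against 4 libraries allow), so YBX1 mRNA was lowered and not absent. The study checked the knockout by Western blot of YBX1 protein in the 4 replicate cultures. The amount of protein cannot be read from these mRNA levels. All 9 myeloid leukemia markers that were examined reached 1 CPM in total RNA in both guides. Their summed level was lower with sgYBX1 in both fractions (2610 to 2710 against 3420 to 3690 CPM in total RNA, and 1090 to 1190 against 1490 to 1690 CPM in polysomal RNA). In total RNA the lower sum came from LYZ (means of 2290 with sgLUC and 1310 CPM with sgYBX1) and MPO (88.2 and 63.3 CPM), while the means of the other 7 of 9 markers were higher with sgYBX1, and in polysomal RNA 7 of 9 means were lower. Of the markers of other cell types, epithelial genes (5), mostly KRT18, summed to 4.48 to 5.6 CPM with sgLUC and 6.8 to 8.39 CPM with sgYBX1 in total RNA, and to 24.0 to 29.2 and 32.9 to 43.0 CPM in polysomal RNA. Lymphoid genes (6), mostly NCAM1, summed to 49.9 to 52.4 CPM with sgLUC and 37.5 to 41.0 CPM with sgYBX1 in total RNA, and to 49.7 to 57.5 and 47.9 to 54.1 CPM in polysomal RNA. Fibroblast and endothelial genes (6), nearly all PECAM1, summed to 41.7 to 85.1 CPM, and their groups overlapped between the guides in both fractions. DCN and CDH5 had no count in any library. The part of these genes in the results below was not tested.

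With sgLUC, the 10 mRNAs fell into a group kept on polysomes and a group largely missing from them. The D-type cyclins, CDK4, CCNE1 and CDKN2C had polysomal levels between 75.7% and 213% of their total level, whereas CCNA2, CDK2, CCNE2, CDKN1B and RB1 had between 9.23% and 32.1%. Compared with total RNA, 3 members were higher and 6 were lower (edgeR quasi-likelihood test, Benjamini-Hochberg adjusted p under 0.05, n = 4 against 4). Of all genes tested, 38.3% were called higher and 43.6% lower in this comparison, so that a call by itself says little here and the sizes matter more. The median log2 difference over the 10 members was -1.02, against -0.12 over all genes. Levels in the fractions are each relative to the RNA in that fraction, and fewer copies per cell cannot be told apart from fewer cells in the phase that expresses a gene.

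**Figure D1:**
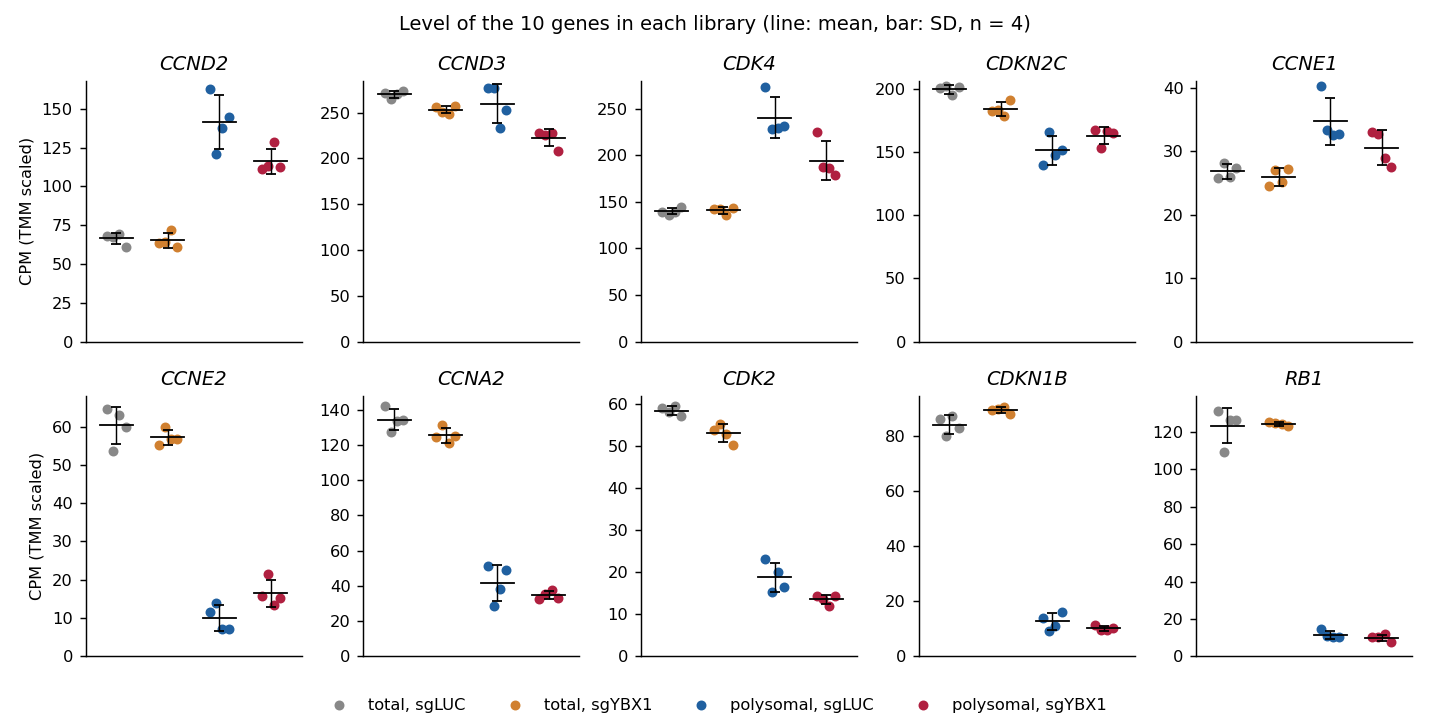
Level of each of the 10 genes in every library, in TMM-scaled CPM, with total RNA in gray and orange and polysomal RNA in blue and red. Black lines are group means and bars are SD over 4 libraries. CCND2 and CDK4 stand higher in polysomal than in total RNA, and the polysomal libraries of CCNE2, CCNA2, CDK2, CDKN1B and RB1 lie far below the total RNA libraries.

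Among the genes that were found on polysomes, CCND2 stood out. CCND2 (chromosome 12, 4273772 to 4305350, plus strand; all positions in GRCh38) was at 68.2, 67.5, 69.2 and 61.2 CPM in the 4 total RNA libraries with sgLUC and at 163, 121, 137 and 145 CPM in the polysomal ones. The groups did not overlap, and the polysomal level was 2.13-fold higher (log2 difference 1.09 ± 0.087, SE, adjusted p = 4.73e-11). CCND3 (chromosome 6, 41934933 to 42050357, minus strand) is the more abundant D-type cyclin per kilobase, and it was at 265 to 273 CPM in total and 233 to 277 CPM in polysomal RNA. Its difference of -0.05 ± 0.068 did not pass the test (adjusted p = 0.455).

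CDK4 (chromosome 12, 57747727 to 57756013, minus strand), the kinase partner of both cyclins, was at 139, 136, 139 and 144 CPM in total and 273, 228, 229 and 232 CPM in polysomal RNA. It was 1.72-fold higher on polysomes (0.78 ± 0.078, adjusted p = 2.62e-09). Replicate 1 was the highest of the polysomal sgLUC libraries. CDKN2C (chromosome 1, 50960745 to 50974633, plus strand), which opposes CDK4, went the other way, with 195 to 202 CPM in total and 140 to 166 CPM in polysomal RNA (-0.40 ± 0.067, adjusted p = 7.87e-06). CCNE1 (chromosome 19, 29811898 to 29824308, plus strand) was at 25.8 to 28.1 CPM in total and 32.6 to 40.2 CPM in polysomal RNA (0.37 ± 0.089, adjusted p = 0.000585).

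The lowest polysomal shares of the 10 were those of RB1 and CDKN1B, which both restrain the cycle. A low share was not particular to such genes. With sgLUC the cyclin CCNE2 was close to CDKN1B (16.6% against 15.0%), and the inhibitor CDKN2C was at 75.7%. RB1 (chromosome 13, 48303726 to 48599436, plus strand), the substrate of these kinases, was at 131, 109, 126 and 126 CPM in total RNA and at 14.4, 10.6, 10.3 and 10.3 CPM in polysomal RNA. Its polysomal level was 9.23% of the total level (-3.44 ± 0.118, adjusted p = 8.78e-18), which placed it at percentile 2.1 of all genes with a matched coding sequence. CDKN1B (chromosome 12, 12715058 to 12722371, plus strand) was at 86.3, 80.0, 87.5 and 82.8 CPM in total and 14.1, 9.36, 11.04 and 16.3 CPM in polysomal RNA (-2.73 ± 0.120, adjusted p = 6.8e-16, percentile 4.8). For both genes every polysomal library was far below every total RNA library.

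CCNE2 behaved unlike its close relative CCNE1. It was at 64.5, 53.7, 63.0 and 59.96 CPM in total RNA with sgLUC but at only 11.6, 14.0, 7.11 and 7.19 CPM in polysomal RNA, which is 16.6% (-2.59 ± 0.169, adjusted p = 1.02e-12). CCNA2 (chromosome 4, 121816444 to 121823933, minus strand) was at 128 to 142 CPM in total and 28.9 to 51.4 CPM in polysomal RNA (-1.69 ± 0.120, adjusted p = 5.18e-12). Its kinase CDK2 (chromosome 12, 55966769 to 55972784, plus strand) had nearly the same difference, with 57.0 to 59.5 CPM in total and 15.4 to 23.1 CPM in polysomal RNA (-1.64 ± 0.103, adjusted p = 5.54e-13). The S-phase pair CCNA2 and CDK2 thus sat between CCNE2 and the genes of the D-type axis.

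With sgYBX1 the order was kept in outline. CCND2 (0.83 ± 0.087), CDK4 (0.46 ± 0.078) and CCNE1 (0.24 ± 0.089) were again higher on polysomes, and CCND3 (-0.19 ± 0.068), CDKN2C (-0.17 ± 0.067), CCNE2 (-1.80 ± 0.162), CCNA2 (-1.85 ± 0.121), CDK2 (-1.97 ± 0.105), CDKN1B (-3.13 ± 0.123) and RB1 (-3.64 ± 0.119) were lower. All 10 passed the test by edgeR (largest adjusted p 0.0193), beside 38.7% of all genes called higher and 44.4% called lower. These directions depend on how the fractions are scaled to each other for the genes near 0. With scaling by total counts alone, CCNE1 was lower on polysomes in both guides (-0.43 and -0.75), and so were CDK4 (-0.02 and -0.53) and, with sgYBX1, CCND2 (-0.16), while the median of all genes moved to -0.93 and -1.15. In sgYBX1 the calls of CCND3 and CDKN2C ended under RLE or upper quartile factors and in DESeq2. That of CCND3 also ended without polysomal sgYBX1 replicate 4 (adjusted p = 0.0523), that of CDKN2C without total sgYBX1 replicate 4 or polysomal sgYBX1 replicate 2 (adjusted p = 0.06 and 0.0587), and that of CCNE1 without total sgYBX1 replicate 1 or polysomal sgYBX1 replicate 1 or 2 (adjusted p = 0.0601, 0.0575 and 0.058). For CCNE2, CCNA2, CDK2, CDKN1B and RB1 the call and the direction held under every scaling, filter, tool and left-out library that was run.

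**Figure D2:**
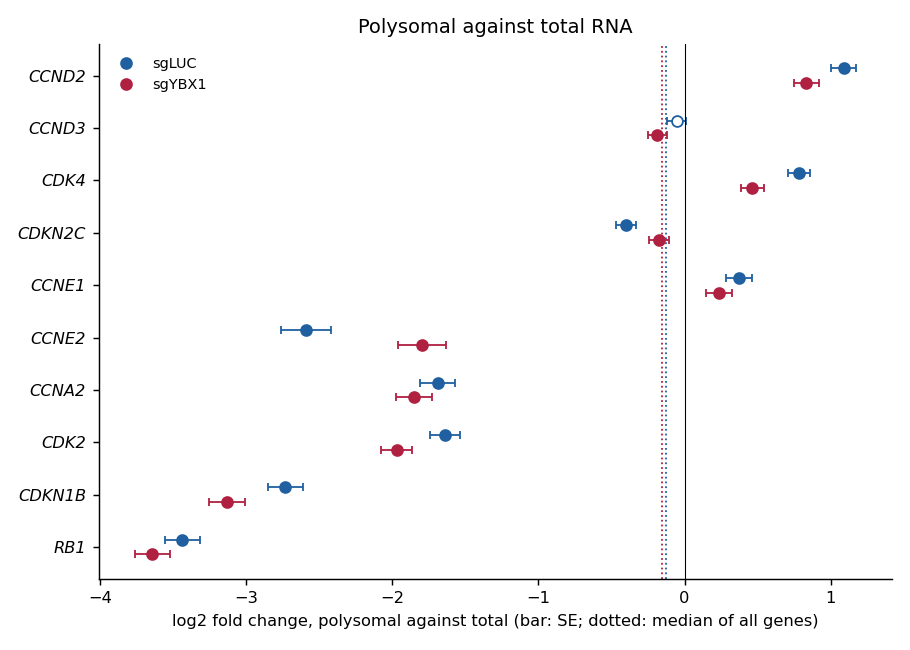
log2 fold change of polysomal against total RNA for each gene, in sgLUC (blue) and sgYBX1 (red). Bars are SE from the edgeR fit, open circles did not pass the test, and dotted lines are the medians of all genes tested; RB1 lies lowest in both guides, and CCND2 highest.

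Ratios between related genes within a library do not depend on the scaling of libraries. They were therefore computed for the 2 D-type cyclins, the 2 E-type cyclins and the 2 kinases, from counts per kilobase of exon, and compared by exact permutation tests over 12 comparisons. Both the genes and these ratios were chosen with their levels known. In total RNA with sgLUC, CCNE2 exceeded CCNE1 in all 4 libraries (ratios 1.45, 1.11, 1.41 and 1.27), and on polysomes CCNE1 exceeded CCNE2 in all 4 (0.167, 0.244, 0.127 and 0.128). On polysomes the ratio was thus 0.123 of its total RNA value (exact permutation p = 0.0286, adjusted p = 0.0429). CCNE2 shares 37.0% of its exon bases with INTS8, a gene at 160 CPM in total RNA, and the part of shared reads in these ratios was not tested, so which E-type cyclin mRNA was the more abundant in total RNA is uncertain.

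The same comparison gave a 2.20-fold higher ratio of CCND2 to CCND3 on polysomes (0.440 against 0.200) and a 5.42-fold higher ratio of CDK4 to CDK2 (15.9 against 2.94), each with exact permutation p = 0.0286 and adjusted p = 0.0429. With sgYBX1 the shifts were 0.241 for the E-type cyclins, 2.03-fold for the D-type cyclins and 5.40-fold for the kinases, with the same p-values. Per kilobase, CCND3 exceeded CCND2 and CDK4 exceeded CDK2 in all 16 libraries. CDK4 also exceeded CDK6, the other kinase partner of D-type cyclins, per kilobase in all 16. Means for CDK6 were 29.8 CPM per kilobase in total and 26.2 in polysomal RNA with sgLUC, and 30.3 and 30.5 with sgYBX1. This order rests on the division by exon length. In CPM the mean of CDK6 was the higher in every group. With sgLUC it was 365.4 against 139.7 in total and 321.2 against 240.5 in polysomal RNA. With sgYBX1 it was 371.9 against 140.8 and 373.3 against 194.2.

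**Figure D3:**
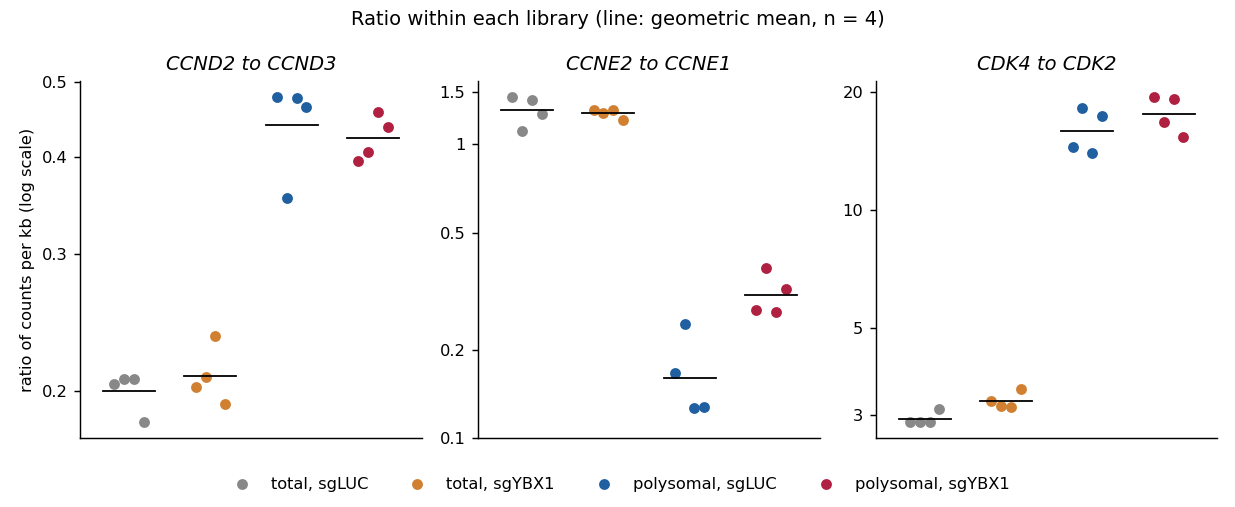
Ratio of counts per kilobase of exon between related genes in each library, on a log scale, with the geometric mean of 4 libraries as a line. The ratio of CCNE2 to CCNE1 is above 1 in all total RNA libraries and between 0.127 and 0.379 in the polysomal ones.

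Ranked by CPM per kilobase, CDKN2C was the most abundant of the 10 in total RNA with sgLUC (60.2 ± 1.02, SD, n = 4), followed by CCNA2 (48.0 ± 2.15), CCND3 (46.5 ± 0.639) and CDK4 (44.1 ± 1.05). CDKN1B (29.9 ± 1.21) and RB1 (19.1 ± 1.49) lay in the middle, and CDK2 (15.0 ± 0.284), CCNE2 (13.7 ± 1.09), CCNE1 (10.5 ± 0.446) and CCND2 (9.30 ± 0.504) at the bottom. The libraries of CCNA2 and CCND3 overlapped, and so did those of CDK2 and CCNE2, so these neighbors do not differ beyond their spread. On polysomes with sgLUC the order was CDK4 (75.9 ± 6.81), CDKN2C (45.6 ± 3.35), CCND3 (44.8 ± 3.61), CCND2 (19.8 ± 2.43), CCNA2 (14.9 ± 3.70), CCNE1 (13.6 ± 1.46), CDK2 (4.82 ± 0.903), CDKN1B (4.51 ± 1.10), CCNE2 (2.27 ± 0.776) and RB1 (1.77 ± 0.310). Here CDKN2C overlapped with CCND3, CCNA2 with both of its neighbors, CDK2 with CDKN1B, and CCNE2 with RB1. CCND2 thus moved from rank 10 to rank 4, and CDKN1B from rank 5 to rank 8.

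The coding sequences of the members differ in the third base of their codons. The share of codons ending in G or C was highest in CCND3 (78.2%) and CCND2 (76.2%), followed by CDKN1B (66.02%), CDK2 (56.8%), CDKN2C (55.0%), CCNE1 (54.3%), CDK4 (53.6%), CCNA2 (43.9%), CCNE2 (36.8%) and RB1 (33.7%). The middle 20 codons of 5 members are printed 5′ to 3′ to show members with high (CCND2, CCND3, CDKN1B) and low (CCNA2, RB1) shares, with capitals for a G or C at the third base. They were read from the annotated GRCh38 transcript with the longest complete coding sequence of each gene, which need not be its main transcript. The shares above were taken from the same transcripts.
CCND2 codons 136 to 155: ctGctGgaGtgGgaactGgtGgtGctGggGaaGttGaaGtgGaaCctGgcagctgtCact
CCND3 codons 137 to 156: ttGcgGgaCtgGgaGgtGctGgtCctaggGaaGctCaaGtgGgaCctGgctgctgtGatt
CDKN1B codons 94 to 113: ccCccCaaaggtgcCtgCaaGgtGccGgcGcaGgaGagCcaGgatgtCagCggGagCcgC
CCNA2 codons 207 to 226: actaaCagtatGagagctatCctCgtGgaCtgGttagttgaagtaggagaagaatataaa
RB1 codons 455 to 474: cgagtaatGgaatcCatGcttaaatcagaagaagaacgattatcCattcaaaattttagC
In these stretches 16, 16, 17, 7 and 5 of the 20 codons end in G or C, in the order printed. The stretch of CDKN1B has the most, although the share of its whole coding sequence is below those of CCND2 and CCND3.

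Across 12439 genes the share of codons ending in G or C and the polysomal against total difference with sgLUC had a Spearman rho of 0.26. Transcript length had one of -0.33 and the GC content of the whole transcript one of 0.30, so the codon share was not the strongest correlate. These are correlations across genes of the same libraries, which are not independent replicates. When the genes were cut by this share into 4 bins of equal size, the median log2 difference from the lowest to the highest bin was -0.81, -0.34, 0.07 and 0.52. RB1 and CCNE2 were in the lowest bin, as was CCNA2, and all 3 lay below the median of that bin. CDKN1B lay farthest below its bin of the 10, since its share of 66.02% was in the third bin, whose median was 0.07, while its own difference was -2.73. In the second bin, whose median was -0.34, CDK2 (-1.64) was also far below, CDKN2C (-0.40) was near the median, and CCNE1 (0.37) and CDK4 (0.78) were above it. CCND3, in the highest bin, was also below the median of its bin, whereas CCND2 was above it.

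**Figure D4:**
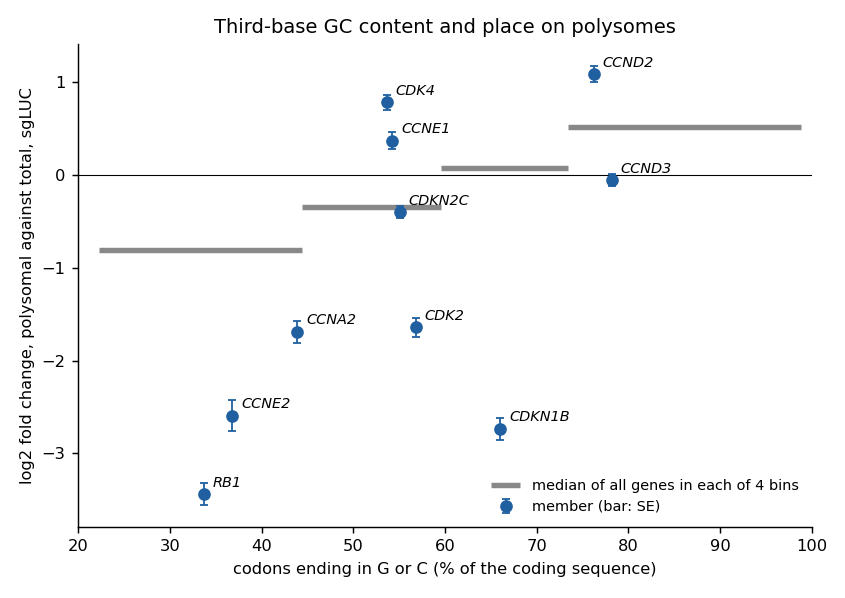
Share of codons ending in G or C (percent of the coding sequence) against the log2 difference of polysomal and total RNA with sgLUC for each member, with SE bars. Gray segments are the medians of all genes in each of 4 bins of that share, rising from -0.81 to 0.52; CDKN1B, RB1, CCNE2 and CDK2 lie far below their segments.

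The question of the study, how loss of YBX1 affects mRNA abundance and recruitment to polysomes, was addressed by comparing guides within each fraction. In total RNA the members changed little. Only CDK2 and CDKN2C passed the test by edgeR, both lower with sgYBX1 and both by under 10%, which is 2 of 10 members beside 14.3% of all genes tested. CDK2 was at 59.1, 58.0, 59.5 and 57.0 CPM with sgLUC and 53.8, 55.3, 52.8 and 50.2 CPM with sgYBX1 (-0.14 ± 0.042, adjusted p = 0.0265). CDKN2C was at 201, 202, 195 and 201 CPM with sgLUC and 183, 184, 179 and 192 CPM with sgYBX1 (-0.12 ± 0.036, adjusted p = 0.028). The groups did not overlap for either gene. The same held for CCND3 (265 to 273 against 249 to 257 CPM, adjusted p = 0.0679) and CDKN1B (80.0 to 87.5 against 88.2 to 90.5 CPM, adjusted p = 0.134), so that 4 of 10 members had groups without overlap, beside 17.1% of all genes.

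Both calls in total RNA were at the edge of what the data resolve. Among the 8 fits without 1 library, that of CDK2 ended without sgLUC replicate 1 or 3 or without sgYBX1 replicate 1, 3 or 4 (adjusted p 0.0508, 0.0815, 0.0592, 0.076 and 0.0942). That of CDKN2C ended without sgLUC replicate 4 or without sgYBX1 replicate 1, 2 or 3 (adjusted p 0.0806, 0.0944, 0.0772 and 0.115). With scaling by total counts alone neither passed (adjusted p = 0.077 and 0.0828), and CDKN1B did (0.13 ± 0.032, adjusted p = 0.0113), whereas DESeq2 called 5 members. The levels of CCND2, CCNE1, CDK4 and RB1 differed by at most 0.05 on the log2 scale (-0.03 ± 0.050, -0.05 ± 0.051, 0.01 ± 0.037 and 0.01 ± 0.045), and CCNE2 and CCNA2 by -0.08 ± 0.050 and -0.10 ± 0.040. The median over the 10 members was -0.06, beside -0.00226 over all genes.

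In polysomal RNA, CCNE2 rose with sgYBX1 and CDK2 fell, and 8 of 10 members did not pass the test. CCNE2 was at 11.6, 14.0, 7.11 and 7.19 CPM with sgLUC and at 15.6, 21.4, 13.4 and 15.2 CPM with sgYBX1. All but 1 of the sgYBX1 libraries lay above all sgLUC libraries, and the level was 1.64-fold higher (0.72 ± 0.194, adjusted p = 0.00765). CDK2 was at 23.1, 15.4, 20.1 and 16.4 CPM with sgLUC and 14.2, 13.7, 11.9 and 14.3 CPM with sgYBX1, without overlap, which is 72.1% (-0.47 ± 0.151, adjusted p = 0.0243). Of all genes, 21.3% were called in this comparison, so 2 called of 10 is near the background. The call of CCNE2 ended without sgYBX1 replicate 2, its highest library (0.56 ± 0.209, adjusted p = 0.0631). That of CDK2 ended without sgLUC replicate 1 (-0.32 ± 0.152, adjusted p = 0.136), sgYBX1 replicate 2 (adjusted p = 0.053) or sgYBX1 replicate 3 (adjusted p = 0.0966).

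CDK4 and the D-type cyclins CCND2 and CCND3 had lower polysomal means with sgYBX1 but did not pass the test. CDK4 was at 273, 228, 229 and 232 CPM with sgLUC and 225, 187, 186 and 179 CPM with sgYBX1 (-0.31 ± 0.116, adjusted p = 0.0554), CCND2 at 121 to 163 against 111 to 128 CPM (-0.28 ± 0.116, adjusted p = 0.0801) and CCND3 at 233 to 277 against 208 to 228 CPM (-0.22 ± 0.111, adjusted p = 0.155). The groups of CDK4 and of CCND3 did not overlap, which together with CDK2 makes 3 of 10 members, beside 22.2% of all genes. Without sgLUC replicate 1, the difference of CDK4 was -0.21 ± 0.112 (adjusted p = 0.2), whereas DESeq2 and limma called it. With scaling by total counts alone, which moved the median of all genes on polysomes to -0.18, CDK4, CCND2, CCND3 and CCNA2 also passed (-0.46, -0.44, -0.38 and -0.42, adjusted p 0.00373, 0.00728, 0.0116 and 0.0451).

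The other members gave no call on polysomes either. CDKN1B was at 9.36 to 16.3 against 9.61 to 11.5 CPM (-0.31 ± 0.172, adjusted p = 0.214), CCNA2 at 28.9 to 51.4 against 32.8 to 37.7 CPM (-0.26 ± 0.145, adjusted p = 0.206), RB1 at 10.3 to 14.4 against 7.72 to 11.8 CPM (-0.20 ± 0.171, adjusted p = 0.455), and CCNE1 at 32.6 to 40.2 against 27.5 to 33.0 CPM (-0.18 ± 0.126, adjusted p = 0.326). CDKN2C was the only one of these 8 with a higher polysomal mean (140 to 166 against 154 to 168 CPM, 0.11 ± 0.110, adjusted p = 0.533). The median over the members was -0.24, beside -0.03 over all genes. Replicates spread more in the polysomal libraries, with a biological coefficient of variation of 0.220 (sgLUC) and 0.149 (sgYBX1) against 0.0591 and 0.0379 in total RNA, so smaller differences could be detected in total RNA.

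**Figure D5:**
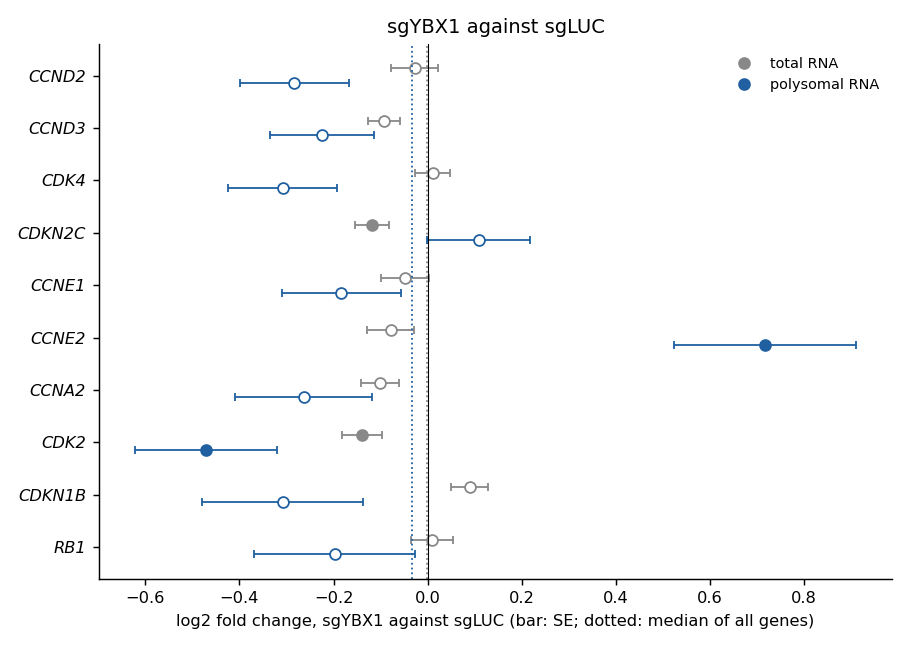
log2 fold change of sgYBX1 against sgLUC in total RNA (gray) and polysomal RNA (blue) for each gene. Bars are SE from the edgeR fits, filled circles passed the test, and dotted lines are the medians of all genes; CCNE2 on polysomes lies apart at 0.72, and 8 of the other 9 polysomal values are below 0.

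The difference between the polysomal and the total RNA change was tested directly with an interaction term over the 16 libraries. It passed for CCNE2 (0.80 ± 0.227, adjusted p = 0.0192) and, in the opposite direction, for CDK4 (-0.32 ± 0.110, adjusted p = 0.0498), that is 2 of 10 members beside 16.7% of all genes. This fit gives each gene a shared spread for both fractions, although polysomal replicates spread more. The SE for CDK4 was below that of its polysomal change alone (0.116), so its p-value can be too small. For CCNE2 the call ended only with scaling by total counts alone (0.61, adjusted p = 0.0654), out of 26 alternatives. The call of CDK4 ended in 19 of 26, among them the fits without polysomal sgLUC replicate 1 (-0.22, adjusted p = 0.116) and without each of the 8 total RNA libraries (adjusted p 0.0638 to 0.0927). With scaling by total counts alone, 5 members passed, all lower (CCND2, CCND3, CDK2, CDK4 and CDKN1B). Beside them, 3371 of 12517 genes were called, and the median of all genes was -0.23. For the members other than CCNE2 and CDK4 the interaction did not pass with TMM over all 16 libraries. CDKN1B was at -0.40 ± 0.163 (adjusted p = 0.0998), CDK2 at -0.33 ± 0.144 (adjusted p = 0.121) and CDKN2C at 0.23 ± 0.094 (adjusted p = 0.105). Without polysomal sgLUC replicate 2, CCND2, CDK2, CDKN1B and CDKN2C also passed. CDKN1B passed without polysomal sgLUC replicate 3 too, and CDKN2C in DESeq2.

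Within libraries, the polysomal ratio of CCNE2 to CCNE1 was 0.274, 0.379, 0.270 and 0.321 with sgYBX1, against 0.167, 0.244, 0.127 and 0.128 with sgLUC. The groups did not overlap and the ratio was 1.92-fold higher (exact permutation test, p = 0.0286, adjusted p = 0.0429 over 12 comparisons), whereas in total RNA it was 0.983-fold (adjusted p = 0.857). The ratio of CDK4 to CDK2 was 1.11-fold higher with sgYBX1 in total RNA (3.15 to 3.51 against 2.88 to 3.11, adjusted p = 0.0429). On polysomes the fold was also 1.11, but the libraries overlapped (15.4 to 19.4 against 14.0 to 18.2, adjusted p = 0.343). The ratio of CCND2 to CCND3 was 1.05-fold in total and 0.962-fold in polysomal RNA (adjusted p = 0.583 and 0.779). The adjusted p of 0.0429 by permutation depends on pooling the guide comparisons with those between fractions. The latter all gave the smallest p that 4 against 4 libraries allow. Guide comparisons were not adjusted on their own, so these 2 results are uncertain.

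Several members share exon bases with another gene, mostly on the opposite strand, and the library kit does not mark strand. CCNE2 (chromosome 8, 94879770 to 94896678, minus strand) shares 37.0% of its exon bases with INTS8, a subunit of the Integrator complex. INTS8 was at 22.5 ± 3.28 CPM on polysomes with sgLUC and 19.3 ± 2.94 CPM with sgYBX1 (SD, n = 4). This difference did not pass the test by edgeR (-0.22 ± 0.144, adjusted p = 0.299). In total RNA INTS8 was at 160 ± 7.65 CPM, and its own polysomal against total difference was -2.83 ± 0.105. CDK4 shares 43.2% of its exon bases with TSPAN31, a tetraspanin gene, which was at only 8.24 ± 0.214 CPM in total and 2.10 ± 0.590 CPM in polysomal RNA with sgLUC. CCNA2 shares 9.1% with EXOSC9, an RNA exosome subunit that was higher on polysomes (1.35 ± 0.097). CDK2 shares 14.5% with AC025162.1 and 2.3% with PMEL, both on the opposite strand, and PMEL stayed under 2 CPM in every library. CCND2 shares 13.8% with AC008012.1 on its own strand and 1.8% with CCND2-AS1 on the other. Levels of AC025162.1, AC008012.1 and CCND2-AS1 were not analysed here. How shared reads were assigned is not given in the sources used here, and their part in the levels and changes of these members was not tested.

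Beyond the members, 52 of 55 other genes of the G1, S and mitotic machinery were tested. In total RNA, 2 were higher and 10 lower with sgYBX1, and on polysomes 8 were higher and 16 lower (edgeR adjusted p under 0.05), with medians of -0.06 and -0.15. Of all genes, 6.49% were called higher and 7.79% lower in total RNA, and 11.1% higher and 10.2% lower on polysomes, with medians of -0.00226 and -0.03. In total RNA the leading genes were E2F5 (1.22-fold, adjusted p = 0.00403) and TFDP2 (1.16-fold, adjusted p = 0.0132), both subunits of E2F complexes, upward, and MYBL2 (86.8%, adjusted p = 0.000184), a transcription factor of S and G2 genes, and CCND1 (68.6%, adjusted p = 0.000352) downward. CCND1, the D-type cyclin not among the members, was at only 4.29 ± 0.303 CPM with sgLUC and 2.95 ± 0.190 CPM with sgYBX1. On polysomes CCND1 was at 3.26 ± 0.793 and 4.37 ± 1.3 CPM (0.42 ± 0.263, adjusted p = 0.276), and its interaction passed in the upward direction (0.96 ± 0.291, adjusted p = 0.0267). TFDP2 lost its call without sgYBX1 replicate 1.

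On polysomes the leading genes were MNAT1 and FBXW7 upward and CCNB1 and MCM7 downward. MNAT1, the assembly factor of the CDK-activating kinase, was at 29.2 ± 4.42 CPM with sgLUC and 48.1 ± 3.47 CPM with sgYBX1 (0.72 ± 0.129, adjusted p = 0.000192). FBXW7, the ubiquitin ligase subunit that recognizes E-type cyclins, was at 107 ± 17.5 and 177 ± 30.5 CPM (0.73 ± 0.133, adjusted p = 0.000231). CCNB1, the mitotic cyclin, was at 53.8 ± 10.1 and 33.9 ± 6.08 CPM (-0.66 ± 0.144, adjusted p = 0.00127), and MCM7, a subunit of the replicative helicase, at 790 ± 35.6 and 565 ± 65.2 CPM (-0.48 ± 0.115, adjusted p = 0.00291). Of 6 mitotic cyclins and kinases, 4 were lower and 0 higher on polysomes, and of 12 genes of origin licensing and firing, 6 were lower and 2 higher. Among E2F and DP factors 3 of 10 were higher and 1 lower. These counts stand beside the 11.1% of all genes called higher and 10.2% called lower on polysomes.

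For each member the most similar profiles over the 16 libraries were found by Pearson's r of log2 CPM among 9105 genes. These were CWF19L1 and ZNF394 for CCND2 (r = 0.986 and 0.985), PXMP2 and NHP2 for CCND3 (0.942 and 0.917), COX5B and EIF1 for CDK4 (0.990 and 0.988), STIM1 and JUN for CDKN2C (0.953 and 0.947), and COQ3 and EIF1 for CCNE1 (0.938 and 0.932). For the members with low polysomal levels they were ZFR and ACAP2 for CCNE2 (0.993 and 0.992), ADNP2 and ATR for CCNA2 (0.998 for both), OAT and NSUN2 for CDK2 (0.996 and 0.995), SUCLA2 and CUL3 for CDKN1B (0.999 and 0.998), and TMEM30A and SLFN11 for RB1 (0.998 for both). The 8 libraries of a fraction share its distance from the other fraction, so these are descriptions without a test.

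The deposited data also hold the gene effect of each gene in a CRISPR screen of MOLM13, in which a negative score means that cells without the gene were lost. The scores carry no replicates. Among 18333 genes, CCNA2 (-1.35, rank 468 from the most negative), CCND3 (-1.07, rank 840) and CDK2 (-0.80, rank 1341) were the members with the strongest loss. CDK4 (-0.44, rank 2472) and CCND2 (-0.44, rank 2483) followed, and CCNE1 (-0.07) and CCNE2 (0.03) lay near 0. CDK6, which is not a member, had a score of -1.615 (rank 229). At the other end, CDKN2C had a score of 0.99 and ranked 7 from the most positive of all genes, RB1 had 0.40 (rank 92) and CDKN1B 0.39 (rank 107). The 3 members that restrain the cycle thus had the 3 highest scores of the list. Their polysomal shares were not alike. RB1 and CDKN1B had the lowest of the 10, whereas CDKN2C was at 75.7% with sgLUC.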

How the data were processed

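For 16 poly(A)-selected libraries the authors deposited a table of raw counts per gene. Per the submitters' processing notes reads were trimmed by Trimmomatic (version 0.36.5), aligned by STAR (2.7.8a) and counted by featureCounts (2.0.1) on GRCh38, with DESeq2 (1.30.0) listed for comparisons, whose settings are not given in the sources used here. Symbols beside the identifiers in this table were misaligned (11 rows matched), so 17521 identifiers were named through the map of Entrez identifiers that the authors deposited with their total RNA comparison, and most others through RefSeq (10 stayed without a name). Among counts from 1 to 39, 63.5% (total) and 60.8% (polysomal) were even, so small counts are coarser than single reads. The authors' own fold changes and p-values were not used. The deposited gene effect score comes from a public screen and was used as given. 0 per-sample columns were left out.

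Genes were kept by filterByExpr over 4 groups, scaled by TMM over 16 libraries and tested with edgeR 4.0.16 (quasi-likelihood, two-sided, Benjamini-Hochberg over 12517 genes, threshold 0.05) in R 4.3.3. Guides were compared within the 8 libraries of a fraction, since replicates spread less in total RNA. Comparisons across fractions used all 16, with a shared spread per gene for both fractions. SE is the size of the log2 fold change divided by the square root of F. Alternatives covered filters, scalings, DESeq2 1.42.0, limma 3.58.1 (voom), a replicate block, 1 fit of 16 libraries, left-out libraries and, chosen after seeing the data, offsets for codon third-base GC content and transcript length, and left-out libraries for the ratios. The fits were tested on simulated data. 1 of the marker lists is not reported here. Members, companion lists, markers and tests were chosen with earlier results of these data known. Named genes were the members, YBX1, per comparison of guides the 2 called companion genes with the smallest adjusted p in each direction, and per member the 2 genes of at least 5 CPM with the highest r (prior count 2). INTS8, TSPAN31, EXOSC9, PMEL, LYZ, MPO and CDK6 were named after their values were seen. Per the study's supplement the fractionated lysates came from 4 replicate cell cultures. Separate transductions are not stated, so p-values measure the spread between cultures. The labels and the study's methods give the first YBX1 guide (sg1) for these libraries. Coding sequences and exon lengths came from the annotation of GRCh38 used here, which need not be the one the authors counted with.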

Additional observations from a re-analysis of the deposited data

Results flagged for a closer look

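Of 40 groups of 4 libraries, 6 held 1 library apart from the other 3 by Dixon's criterion, which chance gives in about 1 of 20 groups. Polysomal sgLUC replicate 1 was the highest library for CCNE1 (40.2 CPM), CDK4 (273 CPM) and RB1 (14.4 CPM). Polysomal sgYBX1 replicate 3 was highest for CCND2 (128 CPM), polysomal sgYBX1 replicate 4 lowest for CCND3 (208 CPM), and total sgYBX1 replicate 3 lowest for CDK4 (135 CPM). Without polysomal sgLUC replicate 1, the polysomal change of CDK4 was -0.21 (adjusted p = 0.2) and that of CDK2 -0.32 (adjusted p = 0.136), by edgeR.

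The change of sgYBX1 against sgLUC differed between polysomal and total RNA for 2 of 10 members by the interaction term of edgeR, beside 16.7% of all genes. For CCNE2 the polysomal minus total change was 0.795 (adjusted p = 0.0192), and for CDK4 it was -0.319 (adjusted p = 0.0498). The call of CDK4 ended in 19 of 26 alternatives and that of CCNE2 in 1. The SE of CDK4 in this fit (0.110) was below that of its polysomal change alone (0.116), so its p-value can be too small.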

How the results depend on the processing

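In total RNA 2 members were called, and 4 with RLE, upper quartile or within-fraction TMM factors, 5 with DESeq2, voom or the offsets for third-base GC content and length (chosen after seeing the data), 0 with 1 fit of 16 libraries, and 0 to 5 with 1 library left out. Of all genes, 1787 were called, and 3003 with voom, 134 with 1 fit of 16 libraries, 2938 with the offsets, and 1177 to 3118 with 1 library left out. The 1 fit uses a shared spread per gene for both fractions, while replicates spread more in polysomal than in total RNA. It called more in polysomal RNA, 5 members and 4653 genes (2 and 2668 in the fit of 8 libraries). With 1 library left out, polysomal RNA gave 0 to 4 members and 1730 to 2901 genes, and the interaction 1 to 6 members and 1519 to 2759 genes. Total counts alone gave 1 member in total RNA, 6 in polysomal RNA, and 5 members and 3371 genes (2085 with TMM) for the interaction. For the interaction 1 member, CCNE2, was called without a filter, with RLE, upper quartile or within-fraction TMM factors, with the replicate block and with the offsets. Polysomal against total RNA gave 9 members in sgLUC and 8 to 10 in sgYBX1, and 9973 to 10326 and 10148 to 10311 genes.

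Signs turned as follows; where no scaling is named as the reason, the cause was not tested. For polysomal against total RNA with sgLUC, CCND3 was 0.047 with RLE, 0.105 with upper quartile factors and 0.0488 with DESeq2, and YBX1 0.0362, 0.0945 and 0.038. Total counts alone gave -0.433 for CCNE1 and -0.0192 for CDK4, and with sgYBX1 -0.16 for CCND2, -0.753 for CCNE1, -0.529 for CDK4 and -0.736 for YBX1. TMM within each fraction, which does not scale the fractions to each other, gave -0.543 for CCNE1 and -0.129 for CDK4 with sgLUC, and with sgYBX1 -0.0548 for CCND2, -0.652 for CCNE1, -0.424 for CDK4 and -0.633 for YBX1. With sgYBX1 and upper quartile factors CCND3 was 0.0117 and CDKN2C 0.0235. For the guides, total counts gave 0.00958 for CCND2 in total RNA and -0.0411 for CDKN2C on polysomes, and voom -0.0163 for RB1 in total RNA. With 1 library left out in total RNA, CDK4 ranged from -0.000878 to 0.0294, RB1 from -0.0422 to 0.0409 and CCND2 from -0.0792 to 0.0044, where CDK4 and RB1 turned without sgLUC replicate 2 and CCND2 without sgYBX1 replicate 4. The log2 fold of the ratio of CCNE2 to CCNE1 in total RNA ranged from -0.103 to 0.0277.

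Same-numbered replicates mostly did not deviate together (r -0.252 to 0.472), so the numbers were not taken as pairs. The replicate block gave 2 members in total RNA and 2 in polysomal RNA, and 1 for the interaction, where the call of CDK4 ended (adjusted p = 0.0627). Most samples did not correlate best with their own number. The YBX1 difference of mean CPM kept its direction without each library.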
